A study of Mus musculus with 12 samples.

Results

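The genes described here encode the machinery of oxidative phosphorylation, measured by RNA-seq of polyadenylated RNA in mouse B cells. Members were the rows of the gene count table whose symbol began with mt-Nd, mt-Co, mt-Cytb or mt-Atp, or matched a nuclear Nduf (a, b, c, s or v), Sdh (a to d), Uqcr, Cyc1, Cox (4 to 8) or Atp5 gene, leaving out pseudogenes. The rule found 109 members, protein-coding by the RefSeq annotation, among 27179 gene IDs, of which 13 are encoded in the mitochondrial genome and 96 in the nucleus. The nuclear set holds 8 Ndufaf genes, which encode assembly factors of complex I and not subunits. No measured value entered the rule.

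The libraries came from pools of immunised C57BL/6 mice, 2 pools in each of 6 groups. Secondary plasmablasts (PB), 5 days after a boost, came from Myb fl/fl CD23-cre T/+ mice (Myb knockout, pools of 5 and 4 mice) and from Myb fl/fl mice without cre (Myb control, pools of 6 and 7). Germinal centre (GC) B cells, 12 days after immunisation, came from mice of both these genotypes (knockout, pools of 2 and 3 mice; control, pools of 3 and 2). GC B cells of day 7 came from Moz fl/fl AID-cre T/+ mice (Moz knockout, pools of 6 and 8) and from AID-cre T/+ mice without the floxed allele (Moz control, pools of 6 and 5). All mice received NP-KLH in alum, and the PB mice a boost of NP-KLH in PBS. CD23 is a surface receptor of mature B cells, and AID is the deaminase of antibody diversification. Presence of cre and loss of Myb cannot be told apart. PB and GC pools share no experiment date, so cell type, schedule and date cannot be told apart either.

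Oxidative phosphorylation passes electrons from NADH and succinate through complexes I to IV to oxygen, pumps protons across the inner mitochondrial membrane and uses the gradient in complex V to make ATP. The mitochondrial genome encodes core subunits of complexes I, III, IV and V, while complex II is wholly nuclear. Germinal centre B cells divide rapidly and plasmablasts secrete antibody, and both draw on mitochondrial metabolism.

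Total counts were 8285934 to 24801297 per library. Immunoglobulin genes took 65.0% to 70.0% of counts in PB pools and 1.59% to 9.16% in GC pools, so levels are given as CPM (counts scaled to library size by TMM). Summed over 8 GC markers, levels were 63.5 to 76.4 CPM in PB pools and 1121 to 1994 CPM in GC pools. Summed over 9 plasmablast markers, they were 110470 to 150460 CPM in PB pools and 1440 to 8516 CPM in GC pools. Summed over 7 T cell markers they were 3.95 to 6.66 CPM in PB and 5.13 to 11.0 CPM in GC pools, and over 7 erythroid markers 1.26 to 3.14 CPM in PB and 0.464 to 1.77 CPM in GC pools. Summed over 8 myeloid markers, all detected, levels were 20.1 to 66.0 CPM in PB pools and 6.09 to 36.9 CPM in GC pools, the highest being pool 1 in each Myb group. The part of these markers in the results was not tested. Whole-gene Myb levels were 13.0 and 11.6 CPM in knockout GC pools, against 14.0 and 11.5 CPM in control GC pools, and 3.11 and 3.10 CPM in knockout PB pools, against 4.13 and 4.64 CPM in control PB pools. Kat6a, which encodes MOZ, had 66.4 and 93.7 CPM in Moz knockout pools, against 82.0 and 73.4 CPM in Moz control pools. The sources used here do not name the floxed exons, so these whole-gene values check nothing about the deletions. Myb knockout GC pool 1 is labelled as 2 females but held 670 counts of the Y-linked gene Ddx3y. Median fold changes of the whole mitochondrial and nuclear sets that use it are also given without it. Control PB pool 1 stood apart in mitochondrial RNA, and median fold changes of the mitochondrial set are also given without it. Medians by complex and of the further lists use all pools.

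The 13 mitochondrial genes made up 0.821% ± 0.140 of all counts in Myb knockout PB pools and 1.23% ± 0.721 in Myb control PB pools (SD, n = 2 in every group). They made up 4.94% ± 0.406 in knockout GC pools and 5.27% ± 0.0305 in control GC pools. In the Moz experiment they made up 5.45% ± 1.34 in knockout and 4.99% ± 0.724 in control GC pools. The share was lower in all 4 PB pools than in any GC pool. In the Myb GC comparison both knockout pools (5.23% and 4.65%) lay below both control pools (5.25% and 5.29%), a separation that was lost outside immunoglobulin genes, and in the other comparisons the pools overlapped.

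The 96 nuclear genes made up 0.311% ± 0.0743 of all counts in Myb knockout PB pools and 0.320% ± 0.0367 in Myb control PB pools. In GC B cells they made up 1.68% ± 0.406 in knockout pools and 1.54% ± 0.321 in control pools. The share was 1.37% ± 0.109 in Moz knockout and 1.56% ± 0.224 in Moz control pools. For this nuclear share, knockout and control pools overlapped in all 3 comparisons.

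Outside immunoglobulin genes the gap between plasmablasts and GC B cells was narrower. Mitochondrial genes then held 3.07% and 2.30% of counts in knockout PB pools and 4.98% and 2.28% in control PB pools, against 4.77% to 7.02% in GC pools. Control PB pool 1 therefore lay within the GC range and the other 3 PB pools below it. Nuclear genes held 0.861% and 1.16% of counts in knockout PB pools and 0.841% and 1.09% in control PB pools, against 1.34% to 2.02% in GC pools, with no overlap. The ratio of mitochondrial to nuclear counts was 3.56 and 1.99 in knockout PB pools and 5.92 and 2.09 in control PB pools, against 2.36 to 4.41 in GC pools. In bulk samples, fewer cells of a type and less RNA per cell cannot be told apart.

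**Figure D1:**
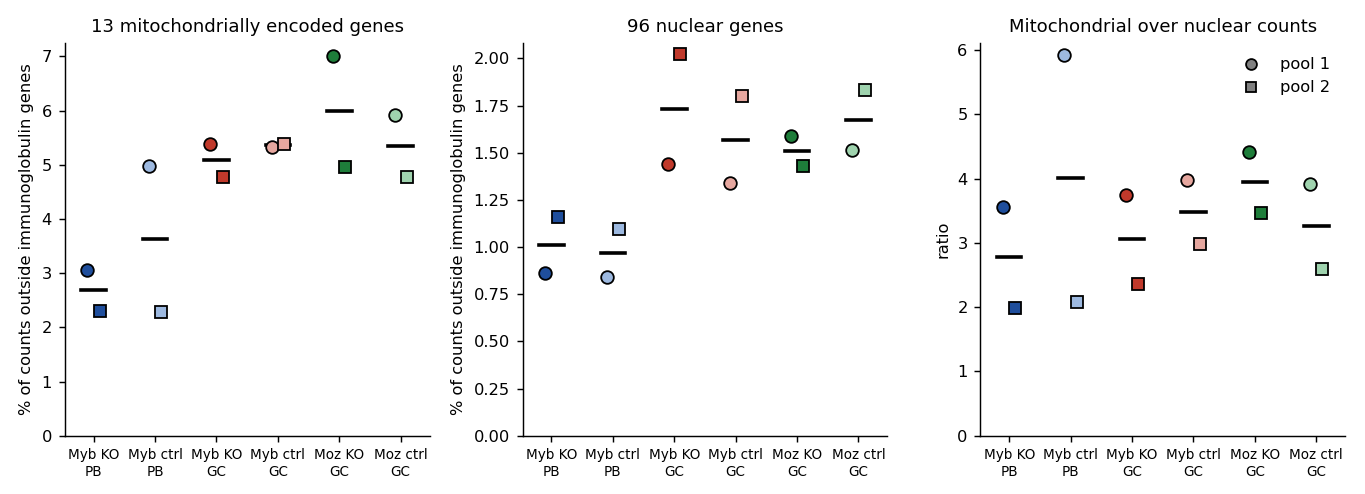
Percent of counts outside immunoglobulin genes held by the 13 mitochondrial and the 96 nuclear genes, and the ratio of their counts, in each pool (circle pool 1, square pool 2, line the group mean). The nuclear share is lower in all 4 PB pools than in the 8 GC pools, and control PB pool 1 has the highest ratio, 5.92.

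Counted levels of the mitochondrial genes differed by position in the genome. In genome order mt-Nd1, mt-Nd2 and mt-Co1 were high, mt-Co2 to mt-Nd4l were low, and mt-Nd4, mt-Nd5, mt-Nd6 and mt-Cytb were high again. mt-Co1, a catalytic subunit of complex IV, had 7468 and 6003 CPM in knockout PB pools and 13740 and 6010 CPM in control PB pools. mt-Co2, the subunit beside it in the enzyme, had 13.1 and 8.95 CPM in knockout PB pools and 29.4 and 8.91 CPM in control PB pools. The 6 low genes (mt-Co2, mt-Atp8, mt-Atp6, mt-Co3, mt-Nd3 and mt-Nd4l) held 0.176% to 0.541% of mitochondrial counts in any library.

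The low genes lie along a copy of mitochondrial DNA in the nuclear genome. GENCODE annotates 7 unprocessed pseudogenes between chr1:24611535-24616197 (GRCm38), on the minus strand, that match a run from mt-Co1 to mt-Nd4. The aligned copies of mt-Co2, mt-Atp6, mt-Co3, mt-Nd4l and mt-Nd4 carried no mismatch, so reads cannot be assigned to one place by sequence, and over mt-Nd3 the copy (Gm28438) carried 1 mismatch in 345 bases. The first 90 bases of the gene (chrM:9459-9548, plus strand) and its copy (chr1:24613030-24613119, minus strand) are shown because they hold the only difference, in capitals, the substitution T3C counted from the first base of mt-Nd3.
mt-Nd3: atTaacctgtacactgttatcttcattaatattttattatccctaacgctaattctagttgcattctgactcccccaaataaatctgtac
Gm28438: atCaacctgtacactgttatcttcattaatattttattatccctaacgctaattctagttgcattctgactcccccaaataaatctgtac

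Of the 50-base words of each gene, 100% (mt-Co2), 99.9% (mt-Co3), 99.5% (mt-Atp6), 98.8% (mt-Nd4l) and 98.0% (mt-Nd3) also occurred in another annotated gene. The share was 62.2% for mt-Nd4 and 51.1% for mt-Co1, both high, and at most 8.19% for the other genes. mt-Atp8 had 0%, but it lies across a stretch that the pseudogene annotation leaves as a gap of 233 bases between the copies of mt-Atp6 and mt-Co2. How the authors' aligner and counter treated reads with several equal matches is not stated, and its part in the low counts was not tested. Values of the 6 low genes are therefore given apart from those of the other 7.

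**Figure D2:**
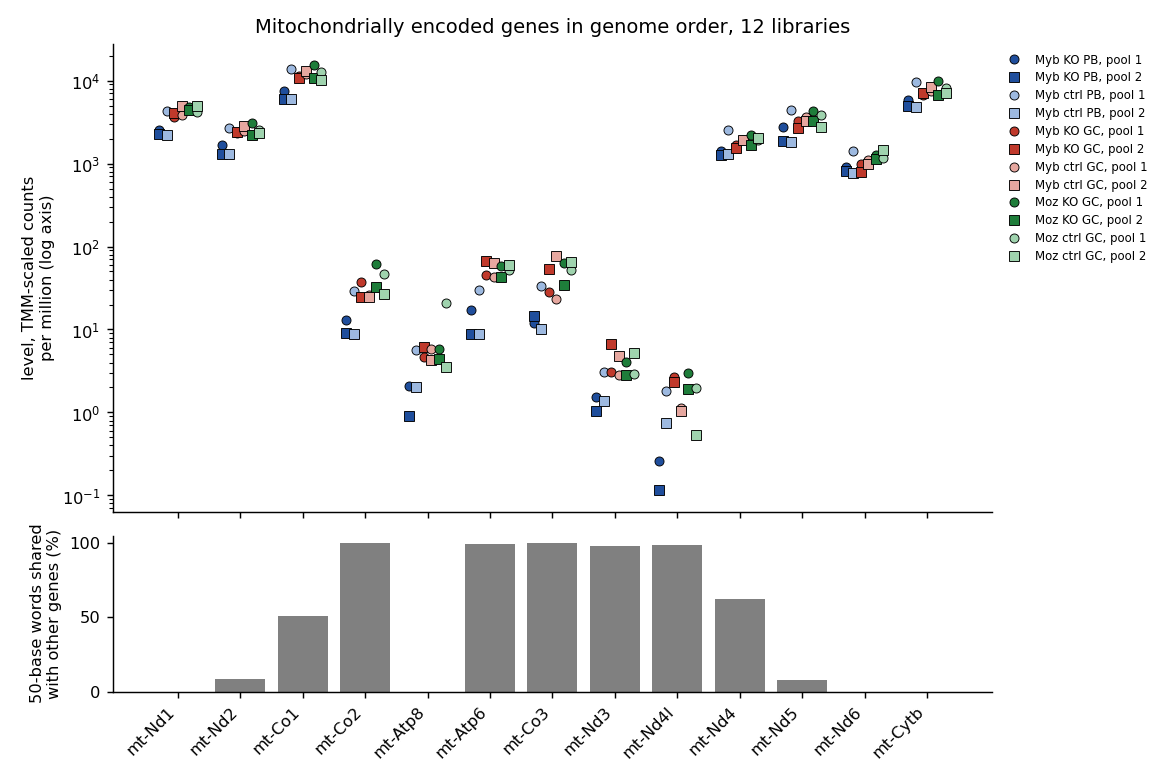
Level of each mitochondrial gene in 12 libraries, in genome order (top; log axis, TMM-scaled CPM; circle pool 1, square pool 2), and the percent of its 50-base words found in other annotated genes (bottom). mt-Co2, mt-Atp6, mt-Co3, mt-Nd3 and mt-Nd4l, with 98.0% or more shared words, are low in every library, and mt-Atp8 is low with 0%.

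Among the 7 high genes, mt-Co1 had the most counts, not corrected for length, in every group and took 32.7% ± 0.243 of mitochondrial counts in knockout PB and 34.2% ± 1.74 in control PB pools. It took 34.9% to 37.2%, as group means, in the 4 GC groups. mt-Cytb, the mitochondrial subunit of complex III, took 26.2% ± 0.539 in knockout PB and 25.4% ± 0.970 in control PB pools, against group means of 23.1% to 23.2% in GC groups. Per kilobase, mt-Cytb at 4713 CPM was above mt-Co1 at 4359.5 CPM in knockout PB pools. In the other 5 groups mt-Co1 had the higher mean. The means of control PB pools were close, at 6391 CPM (mt-Co1) and 6258 CPM (mt-Cytb). Control PB pool 2, taken by itself, had mt-Cytb above mt-Co1. These values use the full gene length, though 51.1% of the words of mt-Co1 occur in other genes, against 0% for mt-Cytb. The part of this sharing in their order was not tested. mt-Nd6, a complex I subunit read from the other strand, had 901 and 805 CPM in knockout PB pools and 1407 and 762 CPM in control PB pools. In GC pools mt-Nd6 had 997 and 786 CPM in Myb knockouts, 1097 and 988 CPM in Myb controls, 1276 and 1141 CPM in Moz knockouts and 1162 and 1441 CPM in Moz controls. It shares 14 of its 519 bases with mt-Nd5 on the other strand, and the use of strand in the counting is not stated.

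Comparing Myb knockout with control GC B cells asks what loss of Myb (with cre) does to these genes. No member passed the test. Of the 13 mitochondrial and 89 tested nuclear members, 0 were called at an adjusted p below 0.05 (edgeR quasi-likelihood test, Benjamini-Hochberg), while 0.259% of all 13131 tested genes were. At an unadjusted p below 0.05 the count was 0 of 13 and 1 of 89, and DESeq2 called 0. Median log2 fold changes were -0.17 (mitochondrial), 0.06 (nuclear) and 0.00 (all genes). Of the nuclear members, 64 of 89 had estimates above 0, against 6555 of 13131 genes.

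The nuclear member with the lowest p was Sdhd, a membrane anchor of complex II, with 3.88 and 6.51 CPM in knockout and 2.37 and 3.55 CPM in control GC pools (log2 0.81 ± 0.36 SE, edgeR adjusted p = 0.836). The groups did not overlap, at low levels. Next came Cox7a2 (log2 0.58 ± 0.33 SE), a subunit of complex IV, Atp5g1 (0.44 ± 0.33), a gene for subunit c of complex V, Ndufa12 (0.37 ± 0.34) and Atp5g2 (0.66 ± 0.65), each with an edgeR adjusted p of 1. Among the 7 high mitochondrial genes estimates ran from -0.25 to -0.16, and among the 6 low genes from -0.29 to 1.20. Without Myb knockout GC pool 1 the medians were -0.11 (mitochondrial) and 0.37 (nuclear, 89 of 90 above 0), and without control GC pool 1 -0.18 and -0.20. Pool 2 was higher than pool 1 for most nuclear members in both these groups (medians of pool 2 minus pool 1, 0.68 and 0.53).

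In plasmablasts the same comparison called 0 of 13 mitochondrial and 0 of 89 nuclear members, against 0.0381% of all genes. At an unadjusted p below 0.05 the count was 1 of 13 and 0 of 89, and DESeq2 called 0. All 13 mitochondrial estimates were negative, with a median of -0.55, against 0.03 for nuclear members and 0.01 for all genes. The mitochondrial median rested on control PB pool 1. mt-Nd1, a membrane subunit of complex I, had 2565 and 2251 CPM in knockout pools, against 4288 and 2229 CPM in control pools (log2 -0.44 ± 0.33 SE, edgeR adjusted p = 1). mt-Cytb had 5872 and 4911 CPM in knockout pools, against 9569 and 4748 CPM in control pools (log2 -0.41 ± 0.36 SE, edgeR adjusted p = 1). Knockout pools lay between the control pools in both genes, so the groups overlapped. Without control PB pool 1 the mitochondrial median was 0.17, with 10 of 13 estimates above 0.

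mt-Nd4l, one of the low genes, had 2 and 1 counts in knockout PB pools, against 20 and 6 counts in control PB pools (log2 -2.80 ± 0.94 SE, edgeR adjusted p = 0.978). Among nuclear members the smallest p values belonged to Cox7a2l (log2 0.51 ± 0.28), Ndufaf5 (-0.50 ± 0.37), Cox6b2 (-1.07 ± 1.07), Atp5g1 (-0.33 ± 0.33) and Ndufa10 (0.19 ± 0.20), each with an edgeR adjusted p of 1. Cox7a2l, known for its part in respiratory supercomplexes, had 65.5 and 73.1 CPM in knockout and 43.3 and 54.5 CPM in control PB pools. The groups did not overlap. The difference of the Myb effect between PB and GC was called for 0 of 13 mitochondrial and 0 of 89 nuclear members (0.00762% of all genes, 1 gene), with 1 and 0 members at an unadjusted p below 0.05, and DESeq2 called 0. Medians of that difference were -0.39 for mitochondrial and -0.04 for nuclear members, against -0.01 for all genes. The mitochondrial median rested on control PB pool 1: without it the medians were 0.33 (10 of 13 above 0) and -0.24. Without Myb knockout GC pool 1 they were -0.36 and -0.32.

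Comparing Moz knockout with control GC B cells asks the same of the histone acetyltransferase MOZ. No member was called, and nor was any other gene (0% of 13131, with 315 genes at an unadjusted p below 0.05 but 0 members). DESeq2 called 0 members. Nuclear estimates leaned to one side, 84 of 89 below 0, with a median of -0.22 against -0.01 for all genes, and mitochondrial estimates did not (7 of 13 above 0, median 0.01). The smallest p values belonged to Ndufaf4, a complex I assembly factor, Cox7a2l, Ndufs5, Ndufc1 and Uqcrb, with estimates of -0.39 to -0.31. Ndufaf4 had 17.2 and 13.0 CPM in Moz knockout, against 19.1 and 20.0 CPM in Moz control pools (log2 -0.37 ± 0.21 SE, edgeR adjusted p = 1), without overlap.

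The lean was found in the second pair of pools only. Knockout minus control within pair 1 gave a nuclear median of 0.09 (73 of 89 above 0), and within pair 2 a median of -0.50 (4 of 89 above 0). Pool numbers separated nuclear members inside every group. Pool 2 minus pool 1 had nuclear medians of 0.68 in Myb knockout GC, 0.53 in Myb control GC, 0.66 in knockout PB, 0.53 in control PB, -0.22 in Moz knockout and 0.39 in Moz control pools, against -0.01 to 0.04 for all genes. Moz knockout was the group in which pool 2 was the lower. Other short genes moved in the same directions: among those with 600 to 1000 counted bases the medians were 0.40, 0.32, 0.47, 0.41, -0.22 and 0.22 in that order of groups, and among those over 4000 bases -0.25, -0.20, -0.30, -0.26, 0.16 and -0.06. The 24 nuclear members of 600 to 1000 bases had 0.71, 0.53, 0.64, 0.51, -0.18 and 0.35, further from 0 than other genes of that length in all groups but Moz knockout. The 7 members of 2000 to 4000 bases had 0.45 and 0.37 in Myb knockout and control GC pools, against -0.03 and -0.02 for other genes of that length. In Moz pair 2 they had -0.28 for knockout minus control, against 0.01 for those other genes. Transcript length moved with the pool difference without matching its size in the members, and its part in the Moz estimates was not tested.

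**Figure D3:**
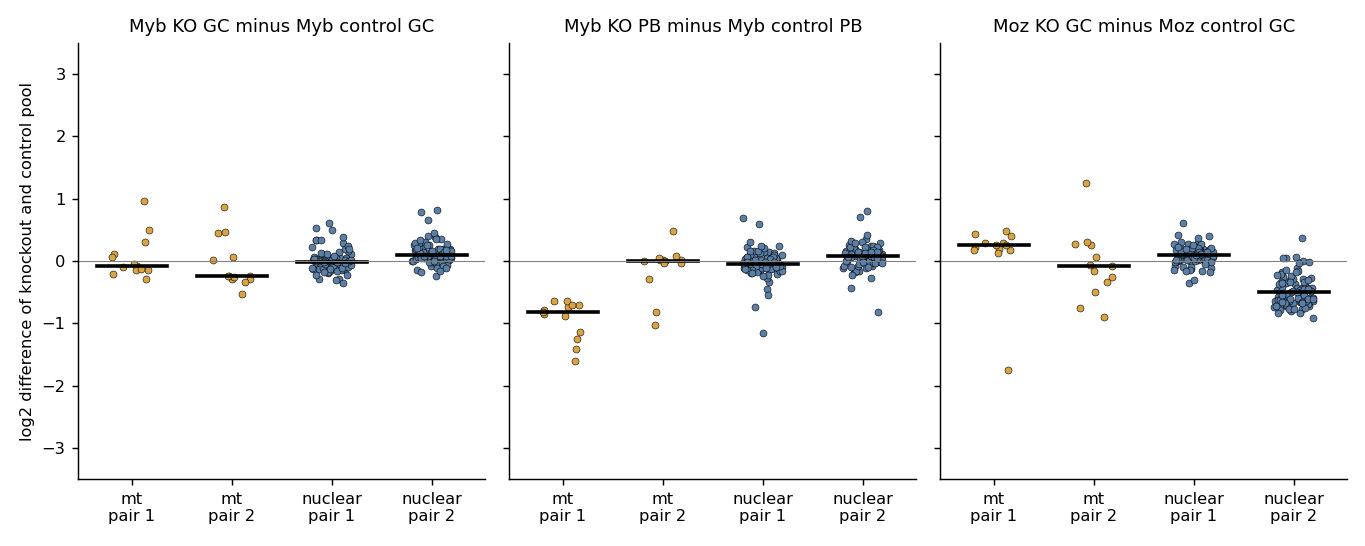
Log2 difference of knockout and control pools for each tested member (points; pseudocount 0.5 CPM) within pair 1 and pair 2, with medians as lines. The nuclear median is 0.09 in Moz pair 1 and -0.50 in Moz pair 2, and the mitochondrial median is -0.81 in PB pair 1 and 0.01 in PB pair 2.

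Setting plasmablasts against GC B cells shows where these genes differ between those pools, whose cell type, schedule and date cannot be told apart. In knockouts 5 nuclear members were higher and 13 lower of 89, and 5 of 13 mitochondrial members were lower. Over all tested genes 24.4% were called higher and 27.2% lower, beside 5.62% and 14.6% of the tested nuclear members. In controls 4 nuclear members were higher and 15 lower, and 1 mitochondrial member was lower (mt-Atp6). There 25.0% of all genes were called higher and 28.1% lower, beside 4.49% and 16.9% of the nuclear members. With the pairs of pools as a block in the fit, 11 nuclear members were higher and 38 lower in knockouts (30.7% and 36.0% of all genes), and 14 higher and 35 lower in controls (31.3% and 36.5%). That block pairs pools within a cell type and none across cell types. For PB against GC it takes spread between dates out of the error, so calls with the block are less cautious. The 2 comparisons share no library, but paired knockout and control pools share experiment dates and all pools share 1 fit. Of the 13 nuclear members lower in knockouts, 12 were also lower in controls (92.3% of the knockout list, 80.0% of the control list), and 3 of 5 higher ones were shared (60.0% and 75.0%). The same overlap over all tested genes was not counted, so these shares have no background beside them.

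Median log2 fold changes of nuclear members were -0.32 in knockouts and -0.28 in controls, against -0.17 for all genes in both. The negative median of all genes depends on scaling (-0.08 and -0.08 with RLE size factors), and changes are to be read relative to it. By complex, medians in knockouts were -0.06 for complex I, -0.54 for complex II, -0.28 for complex III, -0.43 for complex IV, -0.45 for complex V and -0.49 for the assembly factors. In controls they were -0.08, -0.41, -0.39, -0.30, -0.39 and -0.57 in that order. Leaving out a pool moved the median of the whole nuclear set, as given below. Medians by complex were not taken with a pool left out.

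**Figure D4:**
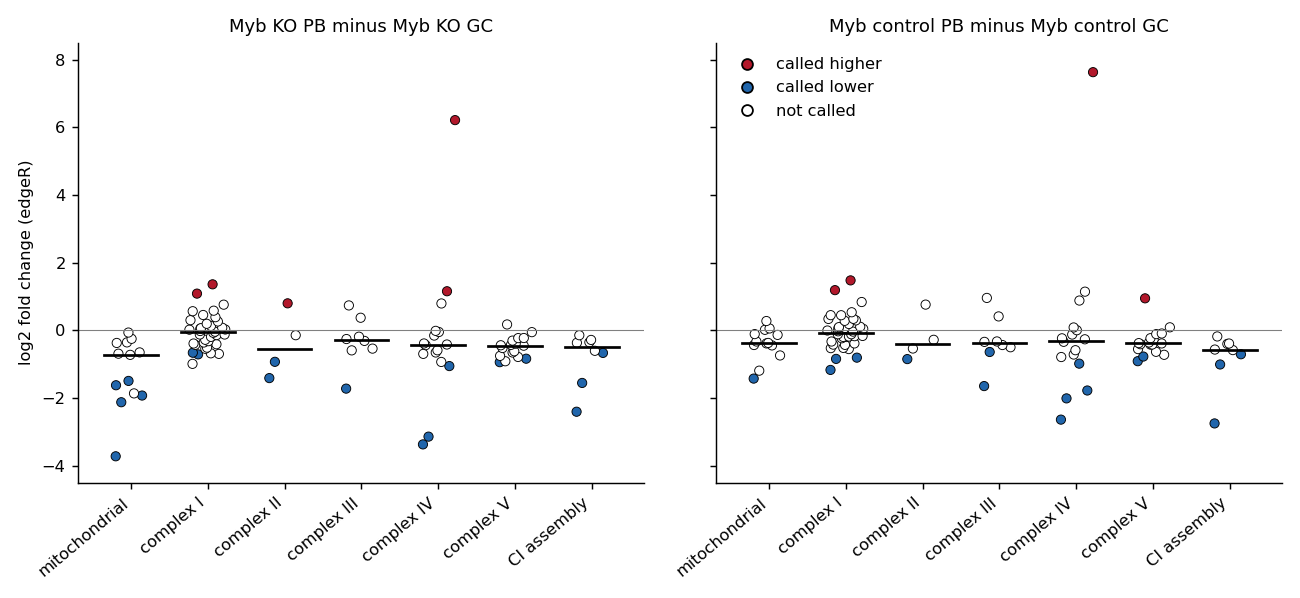
Log2 fold change of each tested member between plasmablasts and GC B cells in knockouts (left) and controls (right), by complex, with medians as lines; red marks members called higher and blue members called lower. Cox6a2, at 6.21 and 7.63, stands apart from all other members in both panels.

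Cox6a2 had the largest estimate of any member. It encodes the isoform of complex IV subunit VIa known from heart and skeletal muscle. Counts were 44 and 120 in knockout PB pools and 53 and 103 in control PB pools, against 3 and 1 in knockout GC and 1 and 0 in control GC pools. Moz knockout GC pools had 0 and 7 counts and Moz control pools 2 and 2. All 4 PB pools were above all 8 GC pools. The knockout estimate was log2 6.21 ± 0.91 SE (edgeR adjusted p = 0.000147) and the control estimate 7.63 ± 1.10 SE (edgeR adjusted p = 0.000126). From summed scaled counts the ratio was 79.6 (exact 95% interval 30.5 to 296) in knockouts, and 218 (38.6 to 8675) in controls, where GC pools held 1 count in all; the intervals cover counting error only.

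The broadly expressed partner, Cox6a1, had 140 and 248 CPM in knockout PB pools and 138 and 229 CPM in control PB pools, against 143 and 249 CPM in knockout GC and 160 and 239 CPM in control GC pools. It did not pass in either comparison (log2 -0.01 ± 0.37 SE in knockouts, -0.12 ± 0.37 SE in controls; edgeR adjusted p = 0.978 and 0.798). Per kilobase of counted length, Cox6a2 averaged 14.1 CPM in PB pools, against 354 CPM for Cox6a1. Of 6 muscle markers, summed levels were 0.389 to 1.03 CPM in PB pools and 4.99 to 7.38 CPM in GC pools. Tnni2 made up most of the GC sum (4.06 to 6.77 CPM), and Myh6 had 0.115 to 0.269 CPM in PB pools and 0 to 0.116 CPM in GC pools. Myh7, a myosin heavy chain, had 0 counts in every library. Exons of Cox6a2 (chr7:128205435-128206387, GRCm38, minus strand) share 70 of 680 bases with Itgad on the opposite strand. Itgad had 56 and 23 counts in knockout PB, 83 and 10 counts in control PB and 2 to 17 counts in GC pools, and its part in the Cox6a2 counts was not tested.

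Cox4i2, the isoform of subunit IV known from lung and from low oxygen, was too low for the test. It had 6 and 21 counts in knockout PB and 6 and 9 in control PB pools, against 1 and 1 in knockout GC, 2 and 2 in control GC and 1 to 3 in Moz GC pools. The PB and GC pools did not overlap. The ratio from summed scaled counts was 26.2 (exact 95% interval 6.58 to 227) in knockouts and 5.25 (1.67 to 21.7) in controls. Its partner Cox4i1, the most abundant nuclear complex IV subunit per kilobase, had 209 and 350 CPM in knockout PB and 199 and 299 CPM in control PB pools, against 319 and 521 CPM in knockout GC and 312 and 505 CPM in control GC pools. It did not pass (log2 -0.59 ± 0.36 SE in knockouts, -0.71 ± 0.36 SE in controls; edgeR adjusted p = 0.197 and 0.121), and passed with the pools as a block (adjusted p = 0.00704 and 0.00243).

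Isoform genes of low level fell as well. Cox7a1, the muscle isoform of subunit VIIa, had 0 and 2 counts in knockout PB and 2 and 1 in control PB pools, and its level was 0.754 to 1.51 CPM in the Myb GC pools. The log2 fold change was -3.14 ± 0.82 SE in knockouts (edgeR adjusted p = 0.00725) and -2.64 ± 0.77 SE in controls (0.0127). By summed counts GC exceeded PB 9.02-fold in knockouts (exact 95% interval 2.32 to 77.4) and 6.43-fold in controls (1.98 to 33.1). Cox6b2, the testis isoform of subunit VIb, had 2 and 0 counts in knockout PB and 2 and 3 in control PB pools, with log2 fold changes of -3.37 ± 0.82 SE (edgeR adjusted p = 0.00482) and -2.01 ± 0.71 SE (0.0319). Another isoform gene had a positive estimate. Ndufa4l2, the partner of the complex IV subunit Ndufa4 known from low oxygen, had 6.49 and 10.6 CPM in knockout PB and 7.18 and 11.4 CPM in control PB pools, against 3.65 and 6.23 CPM in knockout GC and 2.37 and 6.05 CPM in control GC pools. It did not pass (edgeR adjusted p = 0.183 and 0.0648), and passed with the block (0.0216 and 0.00211). Exons of Ndufa4l2 share 32 of 1095 bases with Shmt2 on the opposite strand, and the part of this overlap was not tested. Cox7b2, Cox8b and Cox8c, isoforms known from testis or muscle, had at most 1 count in any library.

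**Figure D5:**
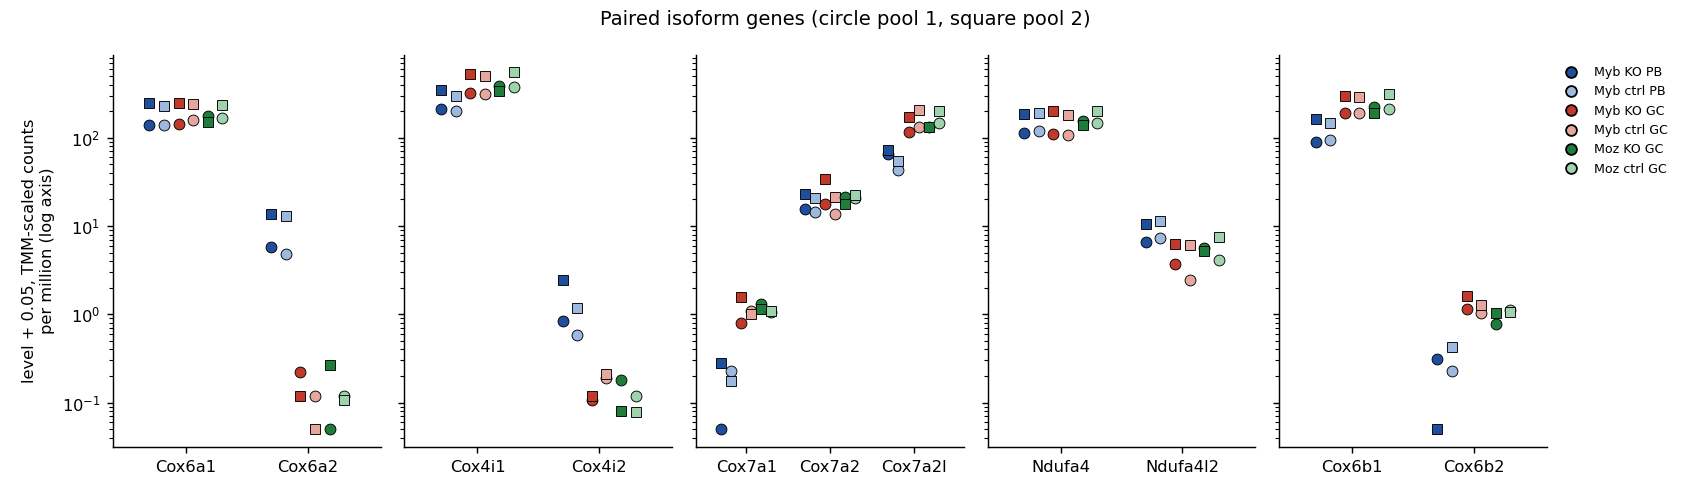
Levels of 5 families of paired isoform genes in 12 libraries (TMM-scaled CPM plus 0.05, log axis; circle pool 1, square pool 2). Cox6a2 and Cox4i2 are higher, and Cox7a1, Cox7a2l and Cox6b2 lower, in the 4 PB pools than in the 8 GC pools.

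Among the complex IV genes present in quantity, Cox7a2l fell in both comparisons. It had 65.5 and 73.1 CPM in knockout PB pools and 43.3 and 54.5 CPM in control PB pools, against 115 and 173 CPM in knockout GC and 131 and 204 CPM in control GC pools. All PB pools lay below all GC pools. The log2 fold change was -1.05 ± 0.28 SE in knockouts (edgeR adjusted p = 0.00728) and -1.78 ± 0.28 SE in controls (0.000248). The difference between these effects was 0.72 ± 0.39 SE and did not pass (edgeR adjusted p = 1). Its partner Cox7a2 had 15.4 and 22.8 CPM in knockout PB and 14.5 and 20.6 CPM in control PB pools, against 17.9 and 34.1 CPM in knockout GC and 13.5 and 21.4 CPM in control GC pools, which overlapped. Cox7b and Cox8a, partners of the undetected isoform genes, had estimates of -0.42 and -0.15 in knockouts and -0.23 and -0.26 in controls, and did not pass. Cox6b1, the broadly expressed partner of Cox6b2, had a log2 fold change of -0.93 ± 0.37 SE in knockouts (edgeR adjusted p = 0.0514) and fell in controls (-0.98 ± 0.37 SE, 0.0408). Cox7c, a small complex IV subunit at 1.28 to 5.16 CPM in the Myb pools, rose in knockouts (log2 1.16 ± 0.45 SE, edgeR adjusted p = 0.0474) and had 0.88 ± 0.45 in controls (0.122); 23.0% of its 50-base words occur in other genes.

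In complex I, Ndufa1 and Ndufs3 rose in both comparisons. Ndufa1, a membrane-arm subunit needed for assembly and the most abundant nuclear complex I gene per kilobase in PB pools, had 160 and 281 CPM in knockout PB pools and 178 and 252 CPM in control PB pools, against 59.7 and 112 CPM in knockout GC and 55.3 and 99.2 CPM in control GC pools. The lowest PB pool was above the highest GC pool. Its log2 fold change was 1.36 ± 0.38 SE in knockouts (edgeR adjusted p = 0.011) and 1.48 ± 0.38 SE in controls (0.00686). Ndufs3, a core subunit of the peripheral arm, had 46.8 and 59.8 CPM in knockout PB and 45.7 and 60.2 CPM in control PB pools, against 20.3 and 30.0 CPM in knockout GC and 20.3 and 26.1 CPM in control GC pools. The groups did not overlap (log2 1.09 ± 0.26 SE, edgeR adjusted p = 0.00408, and 1.19 ± 0.26 SE, 0.00228), but 35.8% of its 50-base words occur elsewhere. Exons of Ndufs3 also share 88 of 2178 bases with Kbtbd4 on the opposite strand, and the part of this overlap in its counts was not tested.

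Ndufa10, an accessory subunit, went the other way. It had 47.5 and 60.8 CPM in knockout PB and 45.1 and 49.8 CPM in control PB pools, against 84.9 and 92.3 CPM in knockout GC and 84.0 and 86.2 CPM in control GC pools (log2 -0.71 ± 0.20 SE, edgeR adjusted p = 0.0098, and -0.84 ± 0.20 SE, 0.00346). Of 36 tested complex I subunits, 2 were higher and 2 lower in knockouts and 2 higher and 3 lower in controls. Among those lower in controls was Ndufab1, the mitochondrial acyl carrier protein (log2 -1.17 ± 0.40 SE, edgeR adjusted p = 0.028). The shares over all tested genes were 24.4% higher and 27.2% lower in knockouts, and 25.0% and 28.1% in controls.

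The assembly factors had no member higher and 3 of 8 lower in both comparisons. Of all tested genes, 24.4% were called higher and 27.2% lower in knockouts, and 25.0% and 28.1% in controls. With 8 genes, these counts show little particular to the assembly factors. Ndufaf6 had 1.04 and 0.803 CPM in knockout PB and 0.449 and 1.26 CPM in control PB pools, against 4.29 and 5.48 CPM in knockout GC and 4.68 and 6.29 CPM in control GC pools (log2 -2.40 ± 0.44 SE, edgeR adjusted p = 0.000736, and -2.75 ± 0.44 SE, 0.000272). Ndufaf5 fell by 1.55 ± 0.35 SE on the log2 scale in knockouts (edgeR adjusted p = 0.00318) and by 1.01 ± 0.34 SE in controls (0.0263). Ndufaf7 fell by 0.67 ± 0.23 SE in knockouts (edgeR adjusted p = 0.0286) and by 0.71 ± 0.23 SE in controls (0.0212).

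In complex II, the iron-sulfur subunit Sdhb and the membrane anchor Sdhc differed in direction. Sdhb had 89.7 and 136 CPM in knockout PB and 108 and 136 CPM in control PB pools, against 179 and 250 CPM in knockout GC and 186 and 254 CPM in control GC pools (log2 -0.93 ± 0.27 SE, edgeR adjusted p = 0.014, and -0.85 ± 0.27 SE, 0.0211). Sdhc had 100.2 and 140.2 CPM in knockout PB and 97.3 and 126 CPM in control PB pools, against 51.8 and 86.5 CPM in knockout GC and 49.9 and 81.7 CPM in control GC pools. It rose in knockouts (log2 0.80 ± 0.30 SE, edgeR adjusted p = 0.0429) and had 0.76 ± 0.30 in controls (0.0509). Sdhd fell in knockouts (log2 -1.41 ± 0.39 SE, edgeR adjusted p = 0.0105) and had -0.54 ± 0.40 in controls (0.278).

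In complex III, Uqcr10, a small subunit beside cytochrome c1, had 23.6 and 41.0 CPM in knockout PB and 22.7 and 40.8 CPM in control PB pools, against 84.0 and 129 CPM in knockout GC and 84.6 and 113 CPM in control GC pools. All PB pools lay below all GC pools (log2 -1.72 ± 0.39 SE, edgeR adjusted p = 0.00289, and -1.65 ± 0.38 SE, 0.00359). Uqcrh, the hinge protein and the most abundant nuclear complex III gene per kilobase averaged over the 6 groups, had 108 and 172 CPM in knockout PB and 93.8 and 154 CPM in control PB pools, against 113 and 206 CPM in knockout GC and 119 and 216 CPM in control GC pools. It did not pass (edgeR adjusted p = 0.709 and 0.37). Cyc1, cytochrome c1 itself, had a log2 fold change of -0.59 ± 0.25 SE in knockouts (edgeR adjusted p = 0.0646) and fell in controls (-0.64 ± 0.25 SE, 0.047).

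Per kilobase of counted length, the highest nuclear members in PB pools were Atp5e at 451, Ndufa1 at 440.9 and Atp5g3 at 405 CPM per kilobase. In GC pools they were Atp5b at 655, Atp5e at 612 and Cox4i1 at 608 CPM per kilobase, and Ndufa1 averaged 156 there. Atp5e encodes the epsilon subunit in the central stalk of complex V.

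In complex V the genes of the alpha and beta subunits fell. Atp5b, the beta subunit and the most abundant nuclear member per kilobase in GC pools, had 737 and 777 CPM in knockout PB and 780 and 716 CPM in control PB pools, against 1121 and 1583 CPM in knockout GC and 1106 and 1451 CPM in control GC pools (log2 -0.84 ± 0.26 SE, edgeR adjusted p = 0.0185, and -0.77 ± 0.26 SE, 0.026). Atp5a1, the alpha subunit, had 576 and 672 CPM in knockout PB and 596 and 651 CPM in control PB pools, against 942 and 1450 CPM in knockout GC and 928 and 1415 CPM in control GC pools (log2 -0.94 ± 0.31 SE, edgeR adjusted p = 0.0231, and -0.91 ± 0.31 SE, 0.0259). Subunit c is encoded by Atp5g1, Atp5g2 and Atp5g3, whose mature products are identical. Atp5g1 had a log2 fold change of 0.18 ± 0.33 SE in knockouts (edgeR adjusted p = 0.678) and rose in controls (0.95 ± 0.33 SE, 0.031). Atp5g3, far more abundant, had 198 and 341 CPM in knockout PB and 223 and 338 CPM in control PB pools, against 250 and 458 CPM in knockout GC and 249 and 409 CPM in control GC pools, and did not pass (edgeR adjusted p = 0.399 and 0.624). Atp5g2 stayed below 1.2 CPM in every library. Words that also occur in other genes made up 36.7% of Atp5g2, 11.1% of Atp5g1 and 0% of Atp5g3. The part of this sharing in the lower levels of Atp5g1 and Atp5g2 was not tested.

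Calls among the mitochondrial genes fell within the stretch copied on chromosome 1. mt-Atp6, the proton channel subunit of complex V, had 17.0 and 8.72 CPM in knockout PB and 30.3 and 8.91 CPM in control PB pools, against 45.4 and 66.3 CPM in knockout GC and 43.3 and 63.1 CPM in control GC pools. The groups did not overlap (log2 -2.12 ± 0.49 SE, edgeR adjusted p = 0.00352, and -1.42 ± 0.47 SE, 0.0244). In knockouts mt-Nd4l (log2 -3.72 ± 0.86 SE, edgeR adjusted p = 0.00361), mt-Nd3 (-1.93 ± 0.57, 0.0146), mt-Co3 (-1.62 ± 0.61, 0.044) and mt-Co2 (-1.49 ± 0.51, 0.0279) fell as well. By summed counts mt-Nd4l was 3 in PB and 80 in GC knockout pools, a ratio of 0.0728 (exact 95% interval 0.0147 to 0.220), but 26 in PB and 29 in GC control pools, a ratio of 1.25 (0.710 to 2.21). The control estimate was log2 0.28 and was not called. The 7 other genes had no call. Their log2 fold changes ran from -0.72 to -0.06 in knockouts and from -0.44 to 0.06 in controls. mt-Co1, for instance, had -0.72 ± 0.39 SE in knockouts (edgeR adjusted p = 0.142) and -0.33 ± 0.39 SE in controls (0.499). With the block mt-Co1, mt-Nd1 and mt-Nd2 passed in knockouts (edgeR adjusted p = 0.0108, 0.00959 and 0.0077), and 1 call of the fit without it was lost. That left 7 lower mitochondrial members in knockouts, and 4 were lower in controls. Without control PB pool 1, the control comparison had a mitochondrial median of -1.04 and a nuclear median of -0.10. Without knockout GC pool 1, the knockout comparison had a mitochondrial median of -0.78 and a nuclear median of -0.58. Medians over all genes in these fits are not given here.

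A few calls held in every alternative that was run. All alternatives start from the same deposited counts, so none bears on sequence shared with other genes, as in mt-Atp6, mt-Nd4l and Ndufs3. Cox6a2, Ndufaf6, Ndufs3 and Uqcr10 were called in both comparisons in every alternative setting and with every single pool left out. The same was true of Cox6b2, Ndufaf5, mt-Atp6 and mt-Nd4l in knockouts, and of Cox7a2l and Ndufa10 in controls. The other 13 of 21 named calls in knockouts and 11 of 17 in controls were lost in at least 1 of these.

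Promoters of nuclear members were searched for 2 motifs of factors known to drive respiratory genes, NRF-1 (GCGCA, 1 base of any kind, GCGC) and GABP of the ETS family (CCGGAA), on both strands, overlaps allowed, in RefSeq promoter sequences (250 bases before to 50 after the start, GRCm38.p6) that were matched for 77 of 96 members. The NRF-1 letters occurred in 19 of 77 (24.7%), against 11.9% of tested genes and 5.19% of all promoters of this length. The GABP letters occurred in 28 of 77 (36.4%), against 32.2% and 16.7%. The promoters of Ndufa1 (chrX:37191189-37191488) and Uqcr10 (chr11:4704295-4704594), which moved in opposite directions, hold neither. Ndufs3 (chr2:90904672-90904971) holds the GABP letters 3 times and Cox6a1 (chr5:115348909-115349208) both motifs, shown in capitals; all 4 lie on the minus strand and are written 5′ to 3′ in that sense.
Ndufa1: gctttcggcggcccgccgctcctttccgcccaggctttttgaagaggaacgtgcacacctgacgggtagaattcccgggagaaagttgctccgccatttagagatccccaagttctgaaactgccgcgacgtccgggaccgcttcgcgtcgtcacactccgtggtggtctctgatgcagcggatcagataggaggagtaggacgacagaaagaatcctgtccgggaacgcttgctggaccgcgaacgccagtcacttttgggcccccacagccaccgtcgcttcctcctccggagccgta
Uqcr10: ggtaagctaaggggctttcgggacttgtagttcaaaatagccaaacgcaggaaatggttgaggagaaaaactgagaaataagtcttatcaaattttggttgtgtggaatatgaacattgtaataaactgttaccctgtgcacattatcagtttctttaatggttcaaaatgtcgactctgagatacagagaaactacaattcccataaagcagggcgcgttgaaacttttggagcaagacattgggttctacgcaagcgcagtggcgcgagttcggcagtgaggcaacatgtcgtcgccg
Ndufs3: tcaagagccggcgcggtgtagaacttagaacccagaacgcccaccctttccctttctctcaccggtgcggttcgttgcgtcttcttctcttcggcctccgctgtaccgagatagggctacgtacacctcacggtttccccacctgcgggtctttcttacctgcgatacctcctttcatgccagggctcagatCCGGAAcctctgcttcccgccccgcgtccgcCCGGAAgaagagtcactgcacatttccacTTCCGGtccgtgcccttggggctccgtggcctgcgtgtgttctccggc
Cox6a1: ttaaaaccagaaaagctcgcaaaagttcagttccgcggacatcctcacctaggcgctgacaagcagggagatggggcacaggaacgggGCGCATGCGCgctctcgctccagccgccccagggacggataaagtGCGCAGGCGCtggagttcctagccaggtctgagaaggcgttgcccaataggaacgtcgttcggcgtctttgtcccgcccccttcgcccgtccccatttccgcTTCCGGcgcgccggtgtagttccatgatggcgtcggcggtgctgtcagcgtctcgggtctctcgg

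Genes outside the rule that serve the same organelle were described from fixed lists. Over all tested genes 24.4% were higher and 27.2% lower in knockouts, and 25.0% higher and 28.1% lower in controls. Of 77 tested genes of the mitochondrial ribosome, 2 were higher and 26 lower in knockouts and 3 higher and 29 lower in controls (33.8% and 37.7% lower), with medians of -0.42 and -0.46. With the pairs of pools as a block 40 and 42 were lower, and 7 higher in both, when 36.0% and 36.5% of all genes were lower. Mrpl49 had 17.4 and 19.0 CPM in knockout PB and 14.6 and 21.3 CPM in control PB pools, against 51.2 and 60.9 CPM in knockout GC and 58.4 and 62.3 CPM in control GC pools (edgeR adjusted p = 6.15e-05 and 3.13e-05). Mrpl45 fell by 1.56 ± 0.22 SE on the log2 scale in knockouts (edgeR adjusted p = 0.000103) and by 1.80 ± 0.22 SE in controls (3.50e-05), and Mrpl19 by 1.24 ± 0.19 SE (0.000245) and 1.30 ± 0.19 SE (0.000162). Of 28 import and folding genes, 1 was higher and 16 lower in knockouts and 1 higher and 13 lower in controls (57.1% and 46.4% lower). Among them the chaperonin Hspd1 fell by 1.88 ± 0.22 SE on the log2 scale in knockouts (edgeR adjusted p = 2.63e-05) and by 1.52 ± 0.22 SE in controls (0.000117), while the import subunit Timm21 rose by 1.32 ± 0.24 SE (0.00066) and 1.37 ± 0.24 SE (0.000546). Tomm40, the channel of the outer membrane, fell by 1.32 ± 0.22 SE (0.000451) and 1.26 ± 0.22 SE (0.000608), and Timm50, a receptor at the inner membrane, by 1.38 ± 0.24 SE (0.000501) and 1.59 ± 0.24 SE (0.000179).

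Of 19 tricarboxylic acid cycle genes, 1 was higher and 5 lower in knockouts and 1 higher and 6 lower in controls. These shares of lower genes, 26.3% and 31.6%, lie near those over all genes, and with the block 10 were lower in both. Fh1, the fumarase that follows complex II in the cycle, had 41.0 and 49.9 CPM in knockout PB and 42.0 and 45.1 CPM in control PB pools, against 134 and 201 CPM in knockout GC and 170 and 211 CPM in control GC pools (edgeR adjusted p = 7.06e-05 and 2.61e-05). Idh3a, a subunit of the NAD-linked isocitrate dehydrogenase, fell by 1.18 ± 0.21 SE on the log2 scale in knockouts (edgeR adjusted p = 0.000523) and by 1.02 ± 0.21 SE in controls (0.00134), while Idh2, the NADP-linked enzyme, rose in controls by 0.89 ± 0.21 SE (0.00363). Of 32 genes of mitochondrial transcription and RNA handling, 2 were higher and 12 lower in knockouts and 3 higher and 14 lower in controls (37.5% and 43.8% lower), with Pnpt1, a mitochondrial RNA-degrading enzyme, at log2 -1.20 ± 0.18 and -1.13 ± 0.18 SE (edgeR adjusted p = 0.000175 and 0.000257). Its helicase partner Supv3l1 had log2 -1.20 ± 0.18 and -1.05 ± 0.18 SE (edgeR adjusted p = 0.000185 and 0.000453). Of 11 regulators of mitochondrial content, 4 were lower in knockouts, and 5 lower and 1 higher in controls (36.4% and 45.5% lower), and with the block 8 were lower in both. Nrf1, whose product binds the NRF-1 motif, had 31.4 and 26.2 CPM in knockout PB and 33.7 and 33.0 CPM in control PB pools, against 49.8 and 54.3 CPM in knockout GC and 51.1 and 54.3 CPM in control GC pools (edgeR adjusted p = 0.00141 and 0.0066). Myc, a growth regulator, fell by 2.15 ± 0.26 SE on the log2 scale in knockouts (edgeR adjusted p = 3.1e-05) and by 1.68 ± 0.25 SE in controls (0.000154).

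Of 39 assembly factors outside the rule, 2 were higher and 6 lower in both comparisons (5.13% and 15.4%), shares below those over all genes. With the block 7 were higher and 9 lower in knockouts and 8 higher and 9 lower in controls. Sdhaf2, which attaches the cofactor of complex II, fell by 1.52 ± 0.23 SE on the log2 scale in knockouts (edgeR adjusted p = 0.000162) and by 1.77 ± 0.23 SE in controls (4.89e-05). Ttc19, a complex III assembly protein, rose by 1.46 ± 0.21 SE (0.00011) and 1.60 ± 0.21 SE (5.48e-05). The cytochrome c and heme lyase list had 1 of 2 lower, Hccs. In the 3 knockout comparisons none of these lists had a called gene.

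Control GC B cells of day 12 in the Myb experiment were set against those of day 7 in the Moz experiment. Day, genotype, cre and date cannot be told apart there, and the mix of sexes differed too. The Y-linked gene Ddx3y had 10.9 and 0.322 CPM in Myb control GC pools and 67.9 and 56.7 CPM in Moz control pools. Here 0 of 13 mitochondrial and 0 of 89 nuclear members were called, against 1.38% of all genes, 0 had an unadjusted p below 0.05 and DESeq2 called 0. Medians were -0.07 for mitochondrial, -0.11 for nuclear members and -0.02 for all genes. With 2 pools in a group, absence of a call bounds little: the SE of mt-Co1 in the 3 knockout comparisons was 0.39 on the log2 scale.

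Of the 96 nuclear members, 7 did not pass the filter on low counts and were not tested: Ndufb4b, Ndufb4c, Uqcr11, Cox4i2, Cox7b2, Cox8b and Cox8c. Ndufb4c, Uqcr11, Cox7b2, Cox8b and Cox8c had at most 2 counts in each library. Uqcr11, which encodes the smallest complex III subunit, had 2 counts over all libraries. Other nuclear complex III members had 4627 (Uqcrb) to 45285 (Uqcrc2). The part of annotation and counting in the Uqcr11 value was not tested. Ndufb4b reached 0.126 CPM at most. GENCODE types Ndufb4c as a processed pseudogene.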

How the data were processed

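The deposited files hold raw gene counts per Entrez gene ID, which featureCounts made against mm10, per the submitters' processing notes. They do not state aligner, annotation, strand setting and treatment of reads with several matches. Symbols for 25275 of 27179 IDs came from RefSeq tables of GRCm38.p6, and positions of pseudogenes from GENCODE (GRCm38). The members and lists were chosen with earlier results of these data known. All 12 libraries entered 1 fit of 6 group means in edgeR 4.0.16 under R 4.3.3 (6 residual degrees of freedom), with filterByExpr (minimum count 10, minimum total 15; 13131 genes kept), TMM scaling, robust two-sided quasi-likelihood tests and Benjamini-Hochberg adjustment over all genes of a comparison (limit 0.05). The fit was tested on simulated data. SE belongs to a log2 fold change, and SD is over 2 pools. The labels describe separate pools of mice, and p-values measure the spread between pools; total counts of 8285934 to 24801297 per library set the counting precision, and exact intervals cover counting error only.

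Knockout and control pools of the same number share experiment dates in the labels, so the numbers pair the samples. Deviations of paired pools from their group means correlated at 0.600 (Myb GC), 0.453 (Myb PB) and 0.361 (Moz GC). The block is 1 term per experiment and cell type, and leaves 3 residual degrees of freedom. In PB against GC it pairs no pools across the contrast, and its p-values there leave out spread between dates. Other settings were DESeq2 1.42.0, RLE size factors, the compared groups only, no filter on low counts, leaving out immunoglobulin genes, and leaving out each pool. Genes were named by rule: every mitochondrial member; per comparison up to 10 called nuclear members in each direction with the largest change whose groups did not overlap and whose average log2 CPM was 2 or more, or the 5 with the smallest p where fewer than 5 were called; isoform families; the most abundant nuclear subunit per kilobase of each complex; and up to 4 called genes of each further list with the smallest p. Cox7c, Ndufab1, Cyc1, Sdhd in PB against GC, and Ndufaf7 in controls were given beside this rule, and the counts of named calls leave them out. Sharing of sequence was scored by words of 50 bases over protein-coding transcripts of each gene, searched in the transcripts of all other annotated genes. One member's own values are not reported here.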

Additional observations from a re-analysis of the deposited data

How the results depend on the processing

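Calls in the knockout comparisons changed little. With no filter on low counts 1 mitochondrial member was called lower in the Moz comparison, in the PB minus GC difference of the Myb effect, and between days 12 and 7, against 0 in each as reported, and the replicate block changed no call of a member in the 3 knockout comparisons. In knockout PB against GC, lower mitochondrial members numbered 2 to 4 with a pool left out. Higher nuclear members numbered 8 with no filter, 11 with the block and 2 to 10 with a pool left out. Lower nuclear members numbered 8 with the compared groups only, 23 with no filter, 38 with the block and 4 to 22 with a pool left out. In control PB against GC, lower mitochondrial members numbered 0 with the compared groups only, 2 with no filter, 4 with the replicate block and 0 to 5 with a pool left out. Higher nuclear members numbered 8 with DESeq2, 7 with RLE size factors, 8 with the compared groups only, 8 with no filter, 14 with the block, 9 without immunoglobulin genes and 2 to 6 with a pool left out. Lower nuclear members numbered 24 with no filter, 35 with the block and 4 to 15 with a pool left out. Outside immunoglobulin genes the mitochondrial share averaged 2.68% in knockout PB, 3.63% in control PB and 5.36% in control GC pools, and the nuclear share 1.01% in knockout PB, 0.968% in control PB and 1.51% in Moz knockout pools. A change of sign was counted where either value was called or both exceeded 1 SE. It occurred for mt-Atp6 in knockout against control PB, at 0.52 without control PB pool 1 (-1.23 to 0.52 with a pool left out), and for mt-Atp8 in the Moz comparison, at 0.55 without Moz control pool 1 (-2.02 to 0.55). Of the other values of named genes, 1445 kept their side of the limit in the settings other than leaving out a pool, 29 newly passed and 19 no longer passed; with a pool left out the counts were 1084, 9 and 57. Where a pool is left out, the lone pool is assumed to vary like the other groups. Counts of calls in those fits stand without the share over all genes, so they show nothing particular to the members. The causes were not tested. Each group has 2 pools, and genes with a few counts per library have wide intervals.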
